A study of Mus musculus with 2 samples.

Results

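The genes described here are 6 components of the sodium pump and of cation-chloride transport in mouse dorsal root ganglia: the pump's beta subunits Atp1b1, Atp1b2 and Atp1b3, the pump regulators Fxyd2 and Fxyd7, and the chloride loader Slc12a2. They were taken by gene symbol, and all 6 matched 1 of the 23282 rows of the count files. The study compared wild-type mice with dry skin with wild-type controls. In the AEW group, acetone, ether and water were applied on 5 days in a row and the ganglia were taken on day 6. The control group received water, and its ganglia were also taken on day 6. Each library is read here as 1 pool of RNA from 6 mice, so there is no spread between animals and no p-value. The sources used here do not give age, sex, the skin site treated or the spinal level of the ganglia.

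The sodium pump, or Na/K-ATPase, exports sodium and imports potassium, and so sets the gradients that action potentials and most sodium-coupled carriers run on. It pairs a catalytic alpha subunit with a beta subunit, which is needed for folding and delivery to the cell surface, and it can carry a small FXYD protein that tunes its ion affinity and turnover. NKCC1, the product of Slc12a2, uses the sodium gradient to bring chloride into the cell. Sensory neurons are known for a high internal chloride that depends on NKCC1, and GABA therefore depolarises them.

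The AEW library held 14376228 counts and the Water library 9333882, a ratio of 1.54. Levels are given as scaled CPM, counts per 1000000 after the library size was scaled with TMM (a trimmed mean of gene ratios). A ratio is the AEW level over the Water level, and its range in brackets is an exact 95% interval that covers counting error only. Genes were measured at a summed count of at least 20, and were called higher or lower when the ratio reached 1.5-fold in that direction and the interval excluded 1. The call of higher in AEW was made for 17.3% of the 14854 measured genes and that of lower for 14.9%, and the median log2 ratio was 0.03 with quartiles at -0.39 and 0.44. The labels name neurons as the cell type, yet the 10 markers of myelinating Schwann cells took 1.83% of AEW counts and 2.04% of Water counts, so the libraries did not hold RNA of neurons alone.

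The regulators Fxyd2 and Fxyd7 differed from the beta subunits in their ratios. Fxyd7 and Fxyd2 were called higher in the AEW library, at 3.05-fold (2.74 to 3.40) and 1.67-fold (1.61 to 1.73). The beta subunits had ratios between 1.03 and 1.05. Slc12a2 had a ratio of 0.71 (0.67 to 0.75), which is 1.42-fold lower and short of the threshold. Thus 2 of the 6 genes were called higher, none lower and 4 neither, against the 17.3% and 14.9% of all measured genes given above. The interval lay wholly above 1 for 32.0% of all measured genes and wholly below 1 for 28.9%, whatever the fold.

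**Figure D1:**
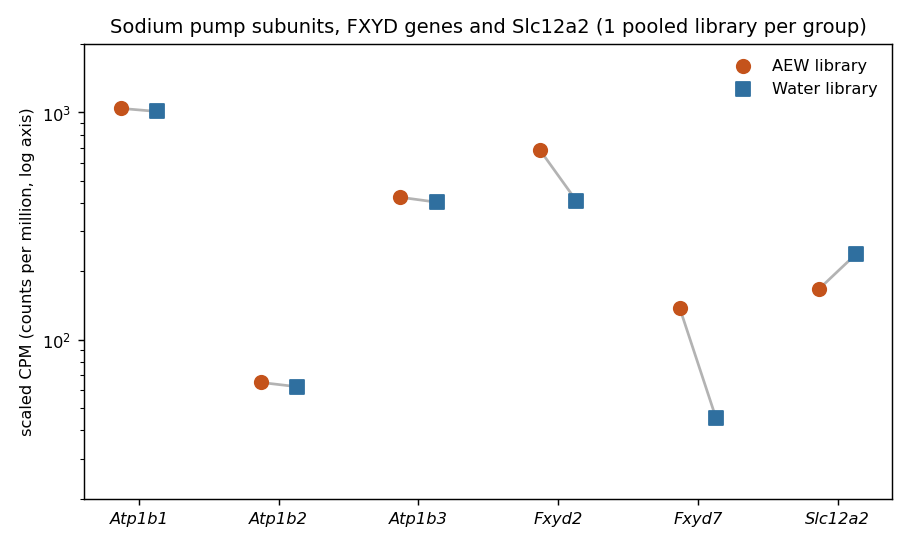
Scaled CPM (log axis) of the 6 genes in the AEW library (circles) and the Water library (squares), 1 pooled library each, with a line joining the values of a gene. The lines of the beta subunits are nearly level, those of Fxyd2 and Fxyd7 are higher at the AEW end, and that of Slc12a2 is lower at the AEW end.

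Promoter sequences were in the RefSeq table (build GRCm38.p6) for 2 of the 6 genes, Atp1b1 and Atp1b3. They are shown because the table held no promoter of the other members. A link between these sequences and the ratios of the genes was not tested. Each runs 5′ to 3′ on the gene's own strand from 250 bases before the start to 50 bases after it. The table held 2 starts for Atp1b3, of which only the one nearest to the annotated start of the gene was used. Capitals mark matches on either strand to GGGCGG (the GC box) or CCAAT (the CCAAT box). The Atp1b1 window is chr1:164458306-164458605 on the minus strand, and the Atp1b3 window is chr9:96364382-96364681 on the minus strand.
Atp1b1: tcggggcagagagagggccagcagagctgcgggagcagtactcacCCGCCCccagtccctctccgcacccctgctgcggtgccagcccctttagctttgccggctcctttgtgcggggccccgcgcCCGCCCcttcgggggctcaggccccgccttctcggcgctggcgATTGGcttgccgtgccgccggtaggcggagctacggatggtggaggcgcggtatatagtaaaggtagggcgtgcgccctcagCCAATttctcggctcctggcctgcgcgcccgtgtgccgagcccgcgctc
Atp1b3: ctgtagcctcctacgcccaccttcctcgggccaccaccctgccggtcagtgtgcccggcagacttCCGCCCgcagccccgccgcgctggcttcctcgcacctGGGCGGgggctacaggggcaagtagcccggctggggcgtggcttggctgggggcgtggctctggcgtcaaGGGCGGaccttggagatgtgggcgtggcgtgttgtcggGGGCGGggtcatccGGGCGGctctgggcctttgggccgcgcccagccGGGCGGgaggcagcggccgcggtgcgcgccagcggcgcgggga
The Atp1b1 window held 2 GC boxes and 2 CCAAT boxes, and the Atp1b3 window held 6 GC boxes and no CCAAT box. Among all 32851 promoter windows of the table, 35.7% held a GC box and 37.4% a CCAAT box. TATAAA, TGACGTCA and CACGTG, found in 13.6%, 1.79% and 7.15% of all windows, had no match in either window, searched on both strands, and none of the 5 motifs contains another. GC content was 71.0% in the Atp1b1 window and 76.0% in the Atp1b3 window, against a median of 52.67% over all windows.

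Fxyd7 encodes a small membrane protein of the FXYD family that is found mainly in the nervous system and lowers the pump's apparent affinity for external potassium. The gene (ENSMUSG00000036578.7) lies on the minus strand of chromosome 7 from 31042513 to 31051467 (mm10). It had 2050 counts in the AEW library, against 411 counts in the Water library, or 138 and 45.4 scaled CPM. Its log2 ratio of 1.61 was exceeded by 3.51% of all measured genes. The call was kept under each of the other scalings, count limits, call rules and GC corrections that were run, with log2 ratios of 0.98 to 1.70. It lay 3.40 scaled median absolute deviations above the 500 genes nearest to it in mean expression.

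Fxyd2 encodes the gamma subunit of the pump, first known from kidney, which changes the pump's affinity for sodium and potassium. In rodent ganglia it has been described in small non-peptidergic neurons. The gene (ENSMUSG00000059412.7, chromosome 9, 45399669 to 45410278, plus strand) had 10128 counts in the AEW library and 3707 counts in the Water library, which is 683 and 409 scaled CPM. Its log2 ratio of 0.74 was exceeded by 14.2% of measured genes. The call ended when GC content was corrected, at a log2 ratio of 0.52 for the whole transcript and 0.42 for its last 500 bases. It also lay within 3 scaled median absolute deviations of its neighbours in expression, at a distance of 1.25.

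The pair did not keep the same proportion in the libraries. Counts of Fxyd2 were 4.94 times those of Fxyd7 in the AEW library and 9.02 times in the Water library, a 1.83-fold shift towards Fxyd7 (1.63 to 2.05). This shift does not depend on library scaling, since both genes of a library share its size. Per kilobase of the longest annotated coding transcript, Fxyd7 made up 16.7% of the pair's scaled CPM in the AEW library and 9.86% in the Water library.

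Atp1b1 encodes the most widely expressed beta subunit. The gene (ENSMUSG00000026576.12; chromosome 1, minus strand, 164437109 to 164458355) had 15446 counts in the AEW library and 9144 counts in the Water library, which is 1042 and 1010 scaled CPM, a ratio of 1.03 (1.01 to 1.06). The annotation places the 3′ end of Nme7, a nucleoside diphosphate kinase gene on the opposite strand, over that of Atp1b1, with 575 exonic bases in common between 164437109 and 164437725. Nme7 had 10900 counts in the AEW library and 7048 counts in the Water library, a ratio of 0.94 (0.92 to 0.97). The sources used here do not say whether counting used strand, so reads of the 2 genes cannot be told apart there and the level of Atp1b1 is uncertain. In the annotation, Atp1b1 alone among the 6 genes overlapped another gene.

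Atp1b3 (ENSMUSG00000032412.8, chromosome 9, 96332655 to 96364442, minus strand) encodes a further beta subunit of broad expression. This gene had 6281 counts in the AEW library and 3651 counts in the Water library, which is 424 and 403 scaled CPM, a ratio of 1.05 (1.01 to 1.10). Atp1b2 (ENSMUSG00000041329.13, chromosome 11, 69599736 to 69605942, minus strand) encodes the beta subunit also known as adhesion molecule on glia. It had 964 counts in the AEW library and 564 counts in the Water library, which is 65.0 and 62.3 scaled CPM, a ratio of 1.04 (0.94 to 1.16). For each beta subunit the AEW and Water levels thus lay within a few percent of each other, and between 47.1% and 49.2% of all measured genes had a higher ratio.

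The beta subunits kept their proportions. The count ratio of Atp1b1 to Atp1b3 was 2.46 in the AEW library and 2.50 in the Water library, a change of 0.98 (0.94 to 1.03). That of Atp1b1 to Atp1b2 was 16.0 in the AEW library and 16.2 in the Water library, a change of 0.99 (0.89 to 1.10), and that of Atp1b3 to Atp1b2 was 6.52 in the AEW library and 6.47 in the Water library, a change of 1.01 (0.90 to 1.13). The overlap with Nme7 leaves each ratio and share that holds Atp1b1 uncertain, here and for Slc12a2. Per kilobase of transcript, Atp1b1 made up 63.2% of the beta subunit level in the AEW library and 63.6% in the Water library. Atp1b3 made up 33.2% in AEW and 32.9% in Water, and Atp1b2 3.58% in AEW and 3.56% in Water. The order of levels per kilobase was therefore Atp1b1, Atp1b3 and Atp1b2 in both libraries, at 404, 213 and 22.9 scaled CPM per kilobase in the AEW library and 391, 202 and 21.9 in the Water library. If the kit reads mainly transcript ends, division by length overstates short transcripts, and the sources used here do not give the share of reads from transcript ends.

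Slc12a2 encodes NKCC1, which carries sodium, potassium and chloride into the cell together. The gene (ENSMUSG00000024597.11, chromosome 18, 57878678 to 57946821, plus strand) had 2490 counts in the AEW library and 2154 counts in the Water library, which is 168 and 238 scaled CPM. Its log2 ratio of -0.50 was undercut by 20.2% of measured genes. Set against Atp1b1 within each library, Slc12a2 had 0.161 counts per Atp1b1 count in the AEW library and 0.236 in the Water library, a change of 0.68 (0.64 to 0.73) that is free of library scaling. The log2 ratio shrank to -0.37 and -0.26 with the corrections for GC content of the whole transcript and of its last 500 bases.

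**Figure D2:**
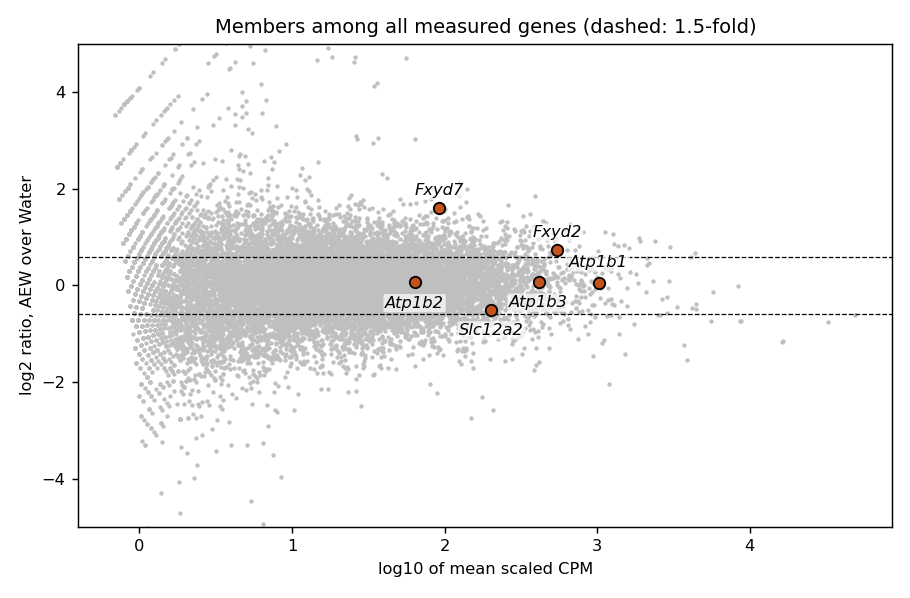
Log2 ratio of AEW over Water against log10 of the mean scaled CPM for 14647 measured genes (grey), with the 6 genes marked and the 1.5-fold limits dashed. Not drawn are 136 genes at 0 in a library and 71 beyond the axis. Fxyd7 lies near the upper edge of the cloud, Fxyd2 just above the limit, the beta subunits near 0 and Slc12a2 just inside the lower limit.

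Pan-neuronal markers were higher beside Fxyd2 and Fxyd7. Against 17.3% of all measured genes called higher and 14.9% lower, 13 of the 22 were called higher, none lower and 9 neither. Their median log2 ratio was 0.77, and their summed level was 17256 scaled CPM in the AEW library and 11173 scaled CPM in the Water library. No pan-neuronal marker was at 0. In bulk RNA, more neurons in the sample and more RNA of a gene per neuron cannot be told apart. Fxyd2 had 12 of these markers above it in ratio and 10 below it. Fxyd7 had 1 above it, Rbfox3 (the gene of the neuronal nuclear antigen NeuN) at 3.31-fold (3.03 to 3.62), and 21 below it. The beta subunits had 20 or 21 of the 22 markers above them, and Slc12a2 had all 22.

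When the libraries were scaled on the summed pan-neuronal counts, every log2 ratio fell by 0.63. Fxyd7 was then at 0.98 and still called higher, and Fxyd2 was at 0.11 and not called. The beta subunits were between -0.58 and -0.56, with intervals wholly below a ratio of 1. They fell just short of a call of lower. Slc12a2 was at -1.13 and called lower. This scaling moves all genes alike, so the differences among the 6 genes are the same on both scales, and ratios near 1 under TMM, such as those of the beta subunits, fall below 1 by construction.

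**Figure D3:**
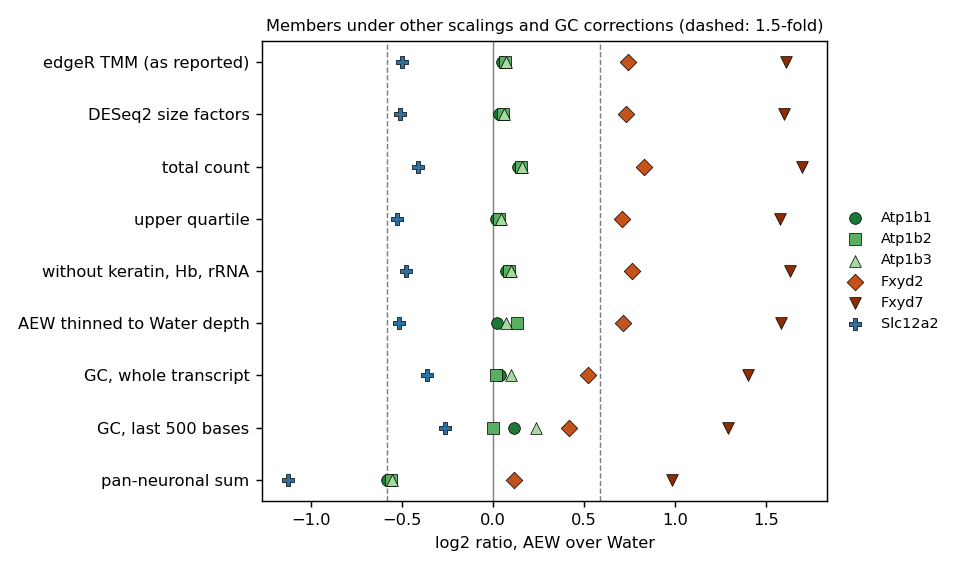
Log2 ratio of AEW over Water for each of the 6 genes under the reported scaling and 8 alternatives, with the 1.5-fold limits dashed. Fxyd7 stays beyond the upper limit in each row, Fxyd2 lies inside it under both GC corrections and the pan-neuronal scaling, and Slc12a2 passes the lower limit only in the pan-neuronal row.

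Markers of single classes of neuron stood beside the regulators as follows. Their calls stand against the 17.3% of all measured genes called higher and the 14.9% called lower. Of 12 measured markers of Mrgprd-expressing non-peptidergic neurons, the class in which Fxyd2 has been described, 6 were called higher, 1 lower and 5 neither, with summed levels of 1416 scaled CPM in the AEW library and 959 in the Water library. A further marker of that list, Lpar5, was at 0 in both libraries. Peptidergic nociceptor markers were called higher in 3 of 9 and lower in none, with sums of 3122 and 3036 scaled CPM in AEW and Water. Markers of large myelinated neurons were called higher in 3 of 10 and lower in none, with sums of 2595 and 2120 scaled CPM in AEW and Water. Nefh, at 1275 scaled CPM in AEW and 991 in Water, was in this list and also in the pan-neuronal list. The lists of 9 and 10 markers are too small to set against the shares of all measured genes. The part of any of these classes in the levels of Fxyd2 and Fxyd7 was not tested.

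Marker lists of glia, connective tissue and muscle had lower sums in the AEW library, beside Slc12a2, and their calls stand against the 14.9% of all measured genes called lower. Satellite glia markers were called lower in 2 of 8 and higher in none, with sums of 7934 scaled CPM in the AEW library and 9154 in the Water library. Apoe and Sparcl1 held 86.2% of the counts of this list, and 3 of the 8 measured markers had a ratio above 1. Myelinating Schwann cell markers were called lower in 2 of 10 and higher in none, with sums of 17752 and 21016 scaled CPM in AEW and Water. Fibroblast markers were called lower in 4 of 8 (6974 scaled CPM in AEW and 14505 in Water), macrophage markers in 10 of 10 (297 in AEW and 797 in Water) and skeletal muscle markers in 6 of 9 (896 in AEW and 1820 in Water), with none higher. Endothelial markers and spinal cord glia markers were called lower in 1 of 7 each, with sums of 95.4 and 204 scaled CPM in AEW, against 104 and 231 in Water. Sox10 and Gfap held 86.8% of the counts of the spinal cord glia list. Sox10 alone was at 157 scaled CPM in AEW and 172 in Water, so these sums mostly reflect 1 gene. Pvalb, at 237 scaled CPM in AEW and 243 in Water, was in the skeletal muscle list and also in that of large myelinated neurons. No marker of these 7 lists was at 0 in a library. Of the choroid plexus markers, 2 of 4 measured were called lower, with sums of 15.4 scaled CPM in AEW and 33.4 in Water. Kcne2 and Otx2 were at 0 in AEW, as were Kcne2 and Slc4a5 in Water. The part of these tissues in the level of Slc12a2 was not tested.

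Epidermal markers were present mainly in the AEW library. All 12 were called higher, against 17.3% of all measured genes. Their summed level was 609 scaled CPM in the AEW library, against 44.2 scaled CPM in the Water library, in which Flg2, Ivl, Dsg1a and Dsc3 were at 0. The part of skin RNA in the levels of the 6 genes was not tested. Leaving keratin, haemoglobin and ribosomal RNA rows out of the library totals gave log2 ratios of 1.63 for Fxyd7 and -0.48 for Slc12a2. That setting moves all genes alike, by 0.02, so it cannot show the part of skin RNA in any of them. Kidney tubule, the tissue best known for Fxyd2, left 16 counts in the AEW library and 12 counts in the Water library over 7 markers. Umod, Cdh16, Kap and Slc34a1 of that list were at 0 in both libraries.

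**Figure D4:**
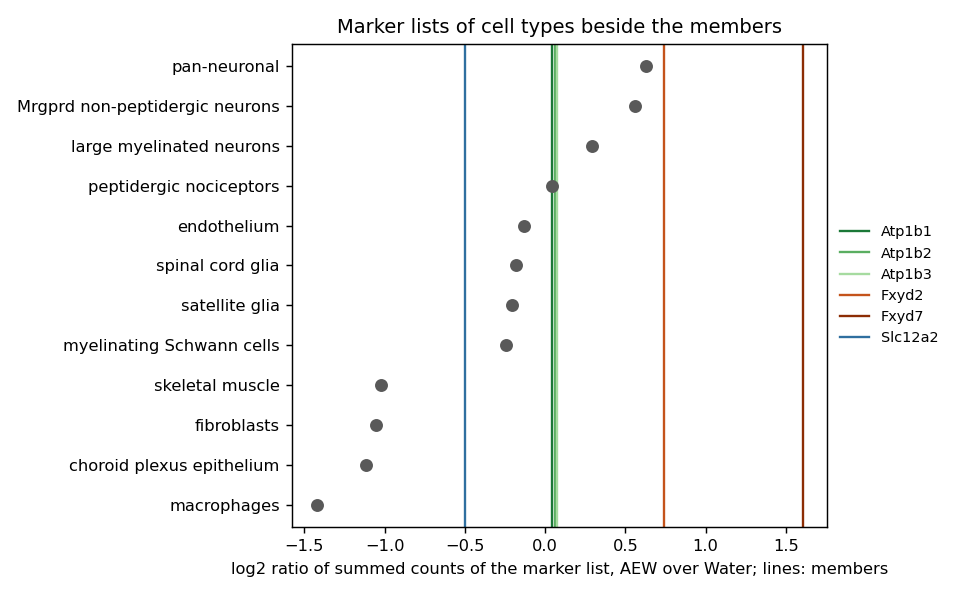
Log2 ratio of AEW over Water of the summed counts of each marker list (points), with a vertical line at the log2 ratio of each of the 6 genes. The epidermal list is left out for its size, and the kidney list for lack of measured genes. Fxyd2 and Fxyd7 lie to the right of every list drawn, and Slc12a2 lies between the glial lists and those of muscle and connective tissue. Sums give most weight to abundant markers. Taken singly, 12 of the 22 pan-neuronal markers had a higher ratio than Fxyd2, and their median log2 ratio was 0.77.

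Among 43 measured genes of 6 lists of pump, cotransporter, kinase and carrier genes, 7 (16.3%) were called higher and 8 (18.6%) lower, close to the 17.3% and 14.9% of all measured genes. Their median log2 ratio was 0.05, beside 0.03 over all measured genes. Of the 4 other measured Na/K-ATPase subunit genes, 1 was called higher, 2 lower and 1 neither. Atp1b4, a muscle-specific relative of the beta subunits in placental mammals, had 1 count in the AEW library and 4 counts in the Water library and was not measured.

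Of the 4 other measured FXYD genes, none was called higher, 1 lower and 3 neither, a number too small to set against the 17.3% and 14.9% of all measured genes. Fxyd6, expressed in neurons, lies 3509 bases upstream of Fxyd2 on the same strand (chromosome 9, 45370185 to 45396159). It had 284 scaled CPM in the AEW library and 274 scaled CPM in the Water library, a ratio of 1.04 (0.99 to 1.09). Fxyd5, also called dysadherin, was called lower at 21.1 scaled CPM in the AEW library and 52.4 scaled CPM in the Water library, a ratio of 0.40 (0.35 to 0.47). Fxyd1, the gene of phospholemman, a pump regulator of muscle and heart, had a ratio of 0.77 (0.72 to 0.83) and was called lower with the GC correction on the last 500 bases (log2 ratio -0.63), and also with pan-neuronal scaling. Fxyd3, known from epithelia, had a ratio of 1.16 (1.06 to 1.26). Fxyd4 had 5 counts in the AEW library and 1 count in the Water library and was not measured.

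The other cation-chloride cotransporters had none of 5 measured genes called higher, 1 lower and 4 neither. Slc12a5 encodes KCC2, the chloride exporter of central neurons, and was called lower at 65 counts in the AEW library and 69 counts in the Water library, a ratio of 0.58 (0.40 to 0.82). Its level of 4.39 scaled CPM in AEW and 7.62 in Water was low. Slc12a4, which encodes the widely expressed exporter KCC1, had a ratio of 0.70 (0.59 to 0.85) and was called lower with both GC corrections (log2 ratios of -0.68 and -0.69) and with pan-neuronal scaling (-1.13). Slc12a7, the gene of KCC4, had a ratio of 1.02 (0.85 to 1.24). Slc12a9, a relative whose transport function is less clear, had a ratio of 1.38 (1.09 to 1.75). The kidney cotransporter genes Slc12a1 and Slc12a3 and the gene Slc12a8 were below the count limit, with 2, 11 and 2 counts in AEW, against 3, 1 and 7 in Water.

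Kinases of the WNK pathway switch NKCC1 on. WNK kinases activate SPAK (Stk39) and OSR1 (Oxsr1), which phosphorylate NKCC1, and the scaffold proteins of Cab39 and Cab39l assist them. Of the 8 genes, 1 was called higher, 1 lower and 6 neither (12.5% in each direction, against 17.3% and 14.9% of all measured genes). Oxsr1 was called higher at 314 counts in the AEW library and 106 counts in the Water library, a ratio of 1.81 (1.45 to 2.28), whereas Stk39 had 1198 and 1064 counts in AEW and Water and a ratio of 0.69 (0.63 to 0.75). Wnk4 was called lower at 84 counts in the AEW library and 91 counts in the Water library, a ratio of 0.56 (0.41 to 0.77). Wnk1, with 286 scaled CPM in AEW and 380 in Water, had a ratio of 0.75 (0.72 to 0.79). Wnk2 had a ratio of 1.38 (1.03 to 1.86) and Wnk3 of 1.03 (0.69 to 1.58). Cab39 was at 1.46 (1.34 to 1.60), slightly short of the threshold, and was called higher with total count scaling and both GC corrections (log2 ratios of 0.64, 0.65 and 0.67). Cab39l was at 1.16 (1.06 to 1.26). With pan-neuronal scaling, Oxsr1 was at a log2 ratio of 0.23 and no longer called.

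**Figure D5:**
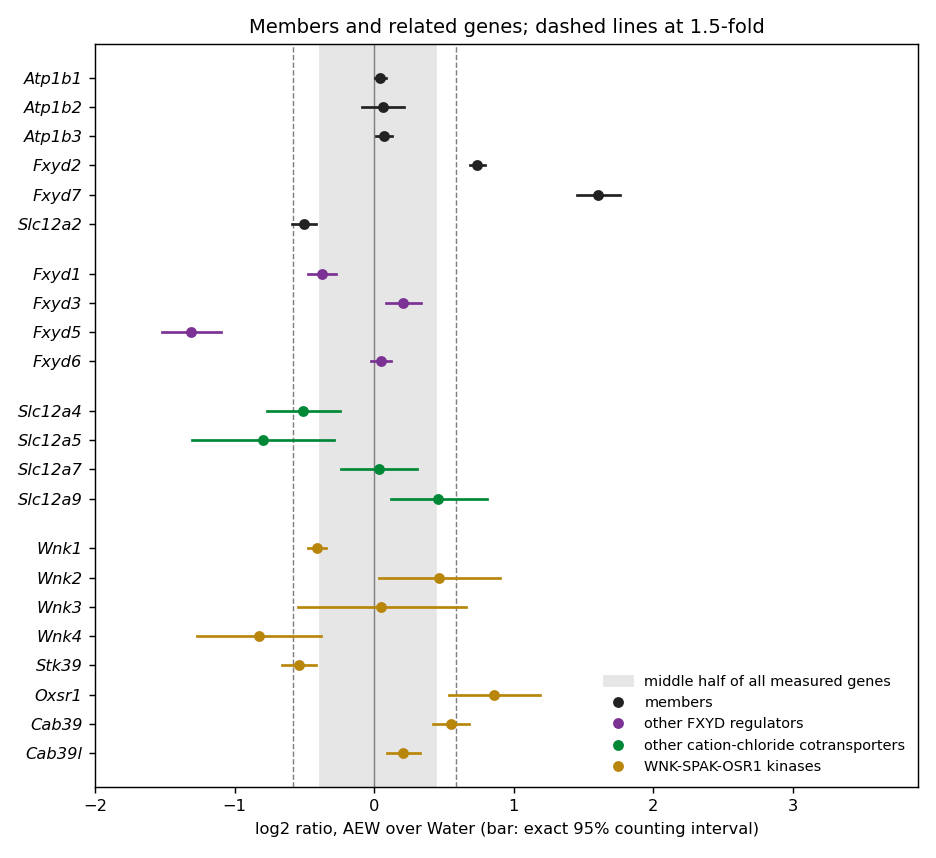
Log2 ratio of AEW over Water with its exact 95% counting interval (bars) for the 6 genes (black), other FXYD genes, other cation-chloride cotransporters and the WNK, SPAK and OSR1 kinases with their scaffolds. The grey band is the middle part of all measured genes, from -0.39 to 0.44, and dashed lines mark 1.5-fold. Fxyd7 at 1.61 and Fxyd5 at -1.31 are the outermost points.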

How the data were processed

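Per the labels' protocols, Trizol RNA (500 ng per library) went into a QuantSeq kit from Lexogen. Bowtie2, bedtools and build mm10 are named in the submitters' processing notes. The sources used here give no versions, annotation, use of strand, or treatment of duplicates and reads with several matches. The authors deposited raw counts per gene symbol in 1 file per library. TMM factors from edgeR 4.0.16 under R 4.3.3 (1.03 for AEW, 0.970 for Water) scaled the library sizes. Ratios have exact conditional binomial (Clopper-Pearson) intervals at 95%, and changes in the count ratio of 2 genes have exact conditional odds ratio intervals. Intervals cover counting error only, since each group has 1 library. The deposited counts hold no molecular identifiers, so copies of 1 molecule may have been counted separately. The intervals may then be too narrow even for counting error. The 79 rows whose symbol occurs more than once stayed in the totals and out of calls. The calling step was run on simulated counts that held counting error only. That run therefore does not bear on spread between animals or libraries.

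The 6 genes, the pathway lists, marker lists and call rule were chosen with earlier results of these data known. Apart from some listed genes whose values are not reported here, the text names every measured gene of a pathway list of up to 10, and of a longer list the 3 with the highest lower bound and the 3 with the lowest upper bound of the ratio. Cell type markers are given as counts and sums. Markers at 0, genes below the count limit, Rbfox3, Sox10, Gfap, Apoe, Sparcl1, Nefh, Pvalb and Nme7 were chosen after their values were seen. Alternatives were DESeq2 1.42.0 size factors, total count, upper quartile and pan-neuronal scaling, totals without keratin, haemoglobin and ribosomal RNA, other count limits and call rules, thinning of the AEW library, and lowess correction (statsmodels 0.14.6) for transcript GC content. Gene identifiers, lengths and 1-based mm10 coordinates are from GENCODE M21. A planned comparison of protein sequences was not made.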

Additional observations from a re-analysis of the deposited data

How the results depend on the processing

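With 1 library per group the limits are those of design: no value has a replicate check, and effects of AEW and of the pool, dissection or library preparation cannot be told apart. No paired analysis was possible because each group has 1 library. Under 13 alternatives, Fxyd7 kept its call. Fxyd2 (log2 ratio 0.74) lost its call at a 2-fold limit, when over 3 scaled median absolute deviations were also required, with GC correction (0.52 for the whole transcript, 0.42 for the last 500 bases) and with pan-neuronal scaling (0.11), so that 1 of the 6 genes was called higher in each of these. Pan-neuronal scaling moved all ratios by -0.63: Atp1b1 was at -0.58, Atp1b2 at -0.56, Atp1b3 at -0.56 and Slc12a2 at -1.13, the last of which made 1 gene called lower.

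Over all measured genes, 2577 were called higher and 2220 lower as reported, 719 and 7137 with pan-neuronal scaling, 1327 and 1071 where the interval had to exclude 1.5-fold, 1223 and 1018 at 2-fold, and 326 and 99 with the deviation limit. Of the pathway lists, 7 higher and 8 lower as reported became 2 and 21, 2 and 5, 2 and 3, and 2 and 0 in the same settings. The cause of the changes under GC correction was not tested. The remaining settings left each of these results on its side of the threshold or within 1.5 times.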

Other observations

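Other pumps and carriers that run on or beside the sodium gradient are given here beside the shares of all measured genes, of which 17.3% were called higher and 14.9% lower. Of 10 measured H/K-ATPase and calcium pump genes, 2 were called higher, 2 lower and 6 neither. Among the plasma membrane calcium pumps, Atp2b3, known mainly from neurons, had 627 counts in the AEW library and 248 counts in the Water library, a ratio of 1.54 (1.33 to 1.80), while the widely expressed Atp2b4 had 982 counts in AEW and 987 in Water, a ratio of 0.61 (0.56 to 0.66). Atp2b1, a further pump of this kind, had a ratio of 1.27 (1.21 to 1.32) and was called higher with the GC correction on the last 500 bases (log2 ratio 0.61). Atp2b3 was not called after thinning of the AEW library, at a log2 ratio of 0.46, after GC correction or with pan-neuronal scaling. Atp2a3, a calcium pump of the endoplasmic reticulum known from blood and epithelial cells, was called lower at 71 counts in AEW and 99 counts in Water, a ratio of 0.44 (0.32 to 0.60). Atp2a1, the calcium pump of fast skeletal muscle, had a ratio of 0.68 (0.63 to 0.74) and was called lower with both GC corrections (log2 ratios of -0.66 and -0.70) and with pan-neuronal scaling (-1.18), beside the lower muscle markers, whose part in it was not tested. Atp12a, the non-gastric H/K-ATPase, had 48 counts in AEW and 0 in Water, at least 9.77-fold higher when the Water library is set at a floor of 3 counts. The exact 95% interval, which also covers the counting error of the AEW count, had a lower bound of 7.65-fold. The 12 epidermal markers, all called higher, moved with it, and their part in it was not tested.

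Of 12 sodium-coupled carriers and chloride channels, 3 were called higher, 1 lower and 8 neither. The sodium-calcium exchanger gene Slc8a2 had 152 counts in AEW and 51 in Water, a ratio of 1.82 (1.32 to 2.55). The chloride channel gene Clcn2 had 352 counts in AEW and 121 in Water, a ratio of 1.78 (1.44 to 2.20). The anion exchanger gene Slc4a2 had 629 counts in AEW and 238 in Water, a ratio of 1.61 (1.39 to 1.88), and was not called after GC correction. Slc4a7, a sodium bicarbonate cotransporter gene, was called lower at 184 counts in AEW and 190 in Water, a ratio of 0.59 (0.48 to 0.73), a call that GC correction also ended. The related Slc4a4 had a ratio of 0.78 (0.71 to 0.86), and Slc8a1, a further sodium-calcium exchanger gene, of 0.86 (0.66 to 1.12). None of the 3 genes called higher here was called with pan-neuronal scaling, at log2 ratios of 0.24, 0.20 and 0.06 for Slc8a2, Clcn2 and Slc4a2.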
